A study of Glycine soja with 4 samples.

Results

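The miRNAs miR159 and miR319 of wild soybean (*Glycine soja*) roots are described here together with the genes whose mRNA was listed as cut under their names. The members were every small RNA named miR159 or miR319, with p5 strands included and each distinct sequence counted once, and every gene listed for these names in the degradome lists. This gave 6 distinct sequences under 7 names, of 217 distinct sequences under 236 name and sequence pairs, and 11 genes of 78. Of the 6 sequences, 3 belonged to miR159 and 3 to miR319. Of the 11 genes, 3 were listed for miR159 and 10 for miR319, so 2 were listed for both.

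The Al-treated seedlings stood in nutrient solution with 50 µmol/L AlCl3, and the Al-free seedlings stood in the same solution with 0 µmol/L AlCl3, both at pH 4.5. Both groups were the wild soybean genotype BW69, which the study chose for its tolerance of aluminium (Al), and it was the only genotype. Root ends of 10 cm were collected at 7 times between 1 and 96 h, and the times were pooled, so that each condition had 1 library of small RNAs and 1 of degradome fragments. There were thus no replicates and no time course, and each test below compares the reads of 2 libraries, not the conditions. In such pooled root tissue, fewer cells that hold a miRNA and less of it per cell cannot be told apart.

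Plant miRNAs guide an Argonaute protein to mRNAs with a nearly complementary site, and the protein cuts the mRNA or holds back its translation. miR159 and miR319 are old and closely related miRNAs of land plants. In Arabidopsis, miR159 acts mainly on GAMYB-like genes such as MYB33 and MYB65, which encode Myb factors of the gibberellin response and of programmed cell death in anthers and seeds. In the same species miR319 acts mainly on class II TCP genes, whose factors end cell division in growing leaves, and it can also cut the Myb mRNAs, while miR159 does not act on the TCP mRNAs. Degradome sequencing reads the 5′ ends of cut mRNAs and so lists the mRNAs with a cut at a miRNA's site.

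The 6 sequences are given first to show how alike both miRNAs are. They are written 5′ to 3′ with DNA letters as deposited, and the capitals mark bases 2 to 8, the seed that pairs first with a target.
PN-miR159a: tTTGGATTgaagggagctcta
PN-miR159c: aTTGGAGTgaagggagct
PN-miR319a and PN-miR319b: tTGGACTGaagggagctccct
PN-miR319: tTTGGACTgaagggagctcct
PN-mir159c-p5: cAAGTTGGagctctctacactc
PN-mir319a-p5: tAGCTGCCgactcattcatcca
The names PN-miR319a and PN-miR319b stood for the same sequence, called PN-miR319a,b below. PN-miR159a, PN-miR319a,b and PN-miR319 were 21 nt long, both p5 strands were 22 nt long, and PN-miR159c was a short form of 18 nt. The content of G and C was 42.9% in PN-miR159a, 57.1% in PN-miR319a,b and 52.4% in PN-miR319. The 6 seeds were all different, and no other sequence of the 217 had any of them at its own bases 2 to 8. The seeds of PN-miR319a,b and PN-miR319 were nonetheless overlapping stretches, shifted by 1 base.

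The 4 mature sequences shared a run of 11 bases, TGAAGGGAGCT, in the middle and towards the 3′ end. It is put in capitals in the lines below to show how the sequences line up.
PN-miR159a: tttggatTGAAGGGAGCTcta
PN-miR159c: attggagTGAAGGGAGCT
PN-miR319: tttggacTGAAGGGAGCTcct
PN-miR319a,b: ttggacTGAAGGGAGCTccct
The run covered bases 8 to 18 of PN-miR159a, PN-miR159c and PN-miR319, and bases 7 to 17 of PN-miR319a,b. These 4 sequences were the only ones of the 217 that held it, and 0 other sequences held even an 8-base piece of it.

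Outside the run the sequences differed at few positions. Substitutions are written with the base of the sequence named first, its position counted from the 5′ end of that sequence, and the base of the sequence named second. PN-miR159a and PN-miR319 were identical at 18 of 21 bases and differed by T7C, T20C and A21T. At this base 7, PN-miR319 was like the other miR319 sequence, once aligned, and unlike both miR159 sequences. PN-miR159a and PN-miR319a,b were identical at 17 of 20 bases once PN-miR319a,b was moved by 1 base, and differed by T7C, T20C and A21C. The pair PN-miR319a,b and PN-miR319 was identical at 19 of 20 bases after the same move and differed by C20T. PN-miR159a and PN-miR159c were identical at 16 of 18 bases and differed by T1A and T7G. PN-miR159c was also identical to PN-miR319 at 16 of 18 bases (A1T and G7C). It was identical to the moved PN-miR319a,b at 16 of 17 bases (G7C). By these counts PN-miR159c was no closer to PN-miR159a than to the miR319 sequences. PN-miR319 thus began 1 base before PN-miR319a,b, at the same place as PN-miR159a.

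The p5 strands come from the other arm of the hairpin precursor. In Arabidopsis the long precursors of both miRNAs are cut stepwise from the loop downwards, which leaves further small RNAs beside the mature miRNA. With no gaps allowed, each p5 strand was slid along a mature sequence, and the offset with the most pairs was kept. PN-mir159c-p5 then faced PN-miR159c over 14 bases with 12 Watson-Crick pairs and 1 G-U pair. It faced PN-miR159a over 17 bases with 13 Watson-Crick pairs and 2 G-U pairs. PN-mir319a-p5 faced PN-miR319a,b over 20 bases with only 8 Watson-Crick pairs and 3 G-U pairs. The miR159 p5 strand thus paired with a mature miR159 at most of the facing bases, and the miR319 p5 strand paired with a mature miR319 at fewer of them. How many pairs unrelated sequences would give at their best offset was not counted.

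The listed reads of all distinct sequences summed to 44493 in the Al-treated library and 30411 in the Al-free library. One sequence, gso-miR2218, held 42.8% of them in the Al-treated library and 23.9% in the Al-free library. Reads of 22 nt, the length class of gso-miR2218, numbered 29691 in the Al-treated library and 15130 in the Al-free library, whereas reads of 21 nt, the class of the main miR159 and miR319 sequences, numbered 12520 in the Al-treated library and 12503 in the Al-free library. A sequence with the same number of reads in both libraries therefore had a lower share of all listed reads in the Al-treated library. Reads were normalised with the factors the study used, 0.946 for the Al-treated library and 1.06 for the Al-free library. All intervals are 95% intervals and cover counting error only, since PCR reads without molecular identifiers are not independent molecules.

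miR159 was far more abundant than miR319 in both libraries, and its reads came from almost 1 sequence alone. PN-miR159a had 2121 reads in the Al-treated library (exact Poisson interval 2032 to 2213) and 2363 reads in the Al-free library (2269 to 2460), which was 99.9% of all miR159 reads in both. It ranked 5 of 208 listed sequences in the Al-treated library, between PNb-miR1509b with 2232 reads and gso-miR1507a,b with 1601 reads. In the Al-free library it ranked 4 of 200, between gso-mir2109-p3 with 2655 reads and gso-miR482a,b with 1579 reads. No other member came near this level.

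PN-miR319a,b had 720 reads in the Al-treated library (668 to 775) and 485 reads in the Al-free library (443 to 530), at rank 11 in the Al-treated library and rank 15 in the Al-free library. PN-miR319, which differs from it by its start and its 3′ end, had 83 reads in the Al-treated library (66.1 to 103) and 121 reads in the Al-free library (100 to 145), at rank 33 in the Al-treated library and rank 28 in the Al-free library. The intervals of the libraries did not overlap for PN-miR159a and PN-miR319a,b, and they overlapped for PN-miR319. In raw reads, PN-miR319a,b was higher in the Al-treated library, while PN-miR159a and PN-miR319 were lower there.

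The remaining members were at the edge of detection. PN-mir319a-p5 had 6 reads in the Al-treated library and 2 in the Al-free library. PN-mir159c-p5 had 2 reads in each library, and PN-miR159c had 1 read in each. PN-mir319a-p5 made up 0.826% of the reads of PN-miR319a,b and PN-mir319a-p5 in the Al-treated library (Clopper-Pearson interval 0.304 to 1.79%) and 0.411% in the Al-free library (0.0498 to 1.48%). These intervals overlapped, and at this depth the difference in this share was not tested. These 3 sequences did not reach the minimum of 10 reads in either library and were not tested.

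**Figure D1:**
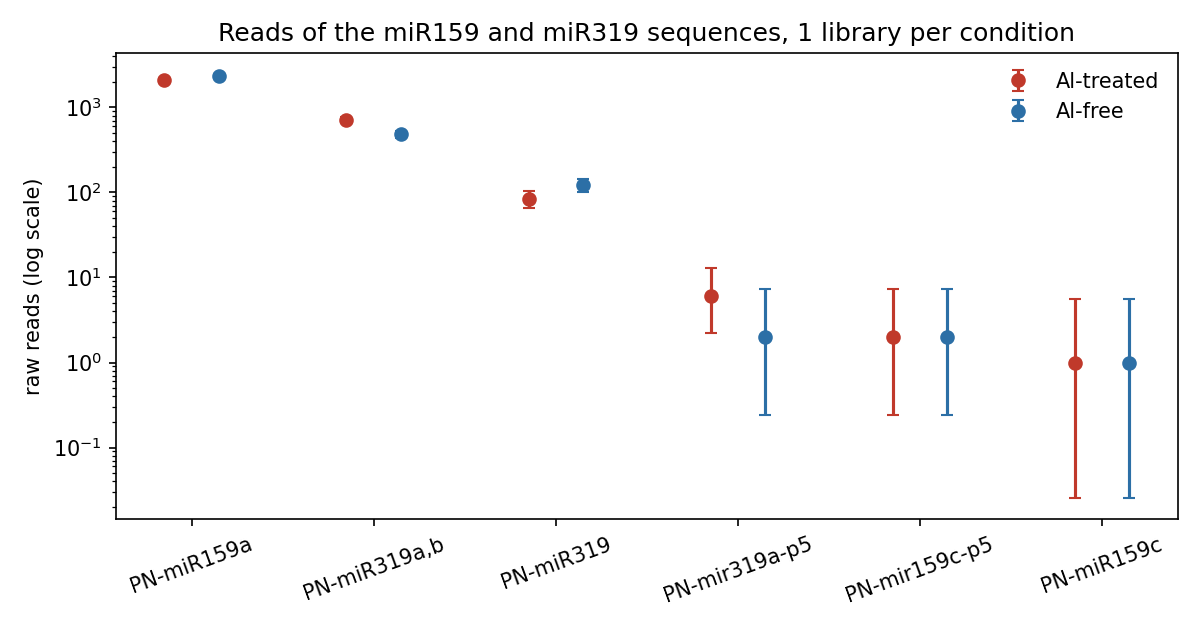
Raw reads of the 6 member sequences (y axis, log scale) in the Al-treated library and the Al-free library, with exact Poisson 95% intervals as bars that cover counting error only. PN-miR159a has 2121 reads in the Al-treated and 2363 in the Al-free library, PN-miR319a,b has 720 reads in the Al-treated and 485 in the Al-free library, PN-miR319 has 83 in the Al-treated and 121 in the Al-free library, and the other 3 sequences have 1 to 6 reads.

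The comparison of Al-treated with Al-free roots asks which miRNAs differ in abundance under Al. Across all 86 sequences that met the minimum (10 reads for known and 20 reads for predicted miRNAs in at least one library), 52 or 60.5% differed at an adjusted p under 0.05 in the exact two-sided binomial test, in which 52.8% of a sequence's reads were expected in the Al-treated library. All 3 members tested were among them, 1 higher and 2 lower, beside 32.6% of all tested sequences called higher and 27.9% called lower. With most of the background called, the members' calls do not set them apart. A difference past the study's threshold, a log2 ratio of 1 or -1, was reached by 35 of the 86 sequences (40.7%) and by 0 of the 3 members tested.

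PN-miR159a was lower in the Al-treated library. It had 2007 normalised reads in the Al-treated library and 2497 in the Al-free library, which gave a log2 ratio of -0.32 (interval -0.40 to -0.23), or 1.24-fold lower (Benjamini-Hochberg adjusted p = 1.49e-12, exact binomial test). The small p goes with the high depth of this sequence, and the difference itself was small. Of the 86 sequences, 30 had a lower log2 ratio than PN-miR159a, and the median over all of them was 0.14.

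The main miR319 sequence moved the other way. PN-miR319a,b had 681 normalised reads in the Al-treated library and 513 in the Al-free library, which gave a log2 ratio of 0.41 (0.24 to 0.58), or 1.33-fold higher (adjusted p = 4.15e-06, exact binomial test). Of the 86 sequences, 33 had a higher log2 ratio. This call depended on the scaling, because it was lost when each library was scaled by its own summed listed reads (log2 ratio 0.021, adjusted p = 0.865, exact binomial test), a sum of which gso-miR2218 held 42.8% in the Al-treated library and 23.9% in the Al-free library. With gso-miR2218 taken out of that sum, all log2 ratios moved by only 0.02 from those with the study's factors, and PN-miR319a,b stayed called. That scaling was added after the values had been seen. Scaling by the median of ratios gave PN-miR319a,b a lower log2 ratio of 0.22 (adjusted p = 0.0165, exact binomial test). Scaling by clean reads (0.52) and no scaling (0.57) gave higher ones.

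The less abundant miR319 sequence, PN-miR319, was lower in the Al-treated library. It had 78.5 normalised reads in the Al-treated library and 128 in the Al-free library, which gave a log2 ratio of -0.70 (-1.12 to -0.29), or 1.63-fold lower (adjusted p = 0.00145, exact binomial test). Its interval reached past -1, and 18 of the 86 sequences had a lower log2 ratio. Both miR319 sequences thus differed between the libraries in opposite directions with the study's factors.

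**Figure D2:**
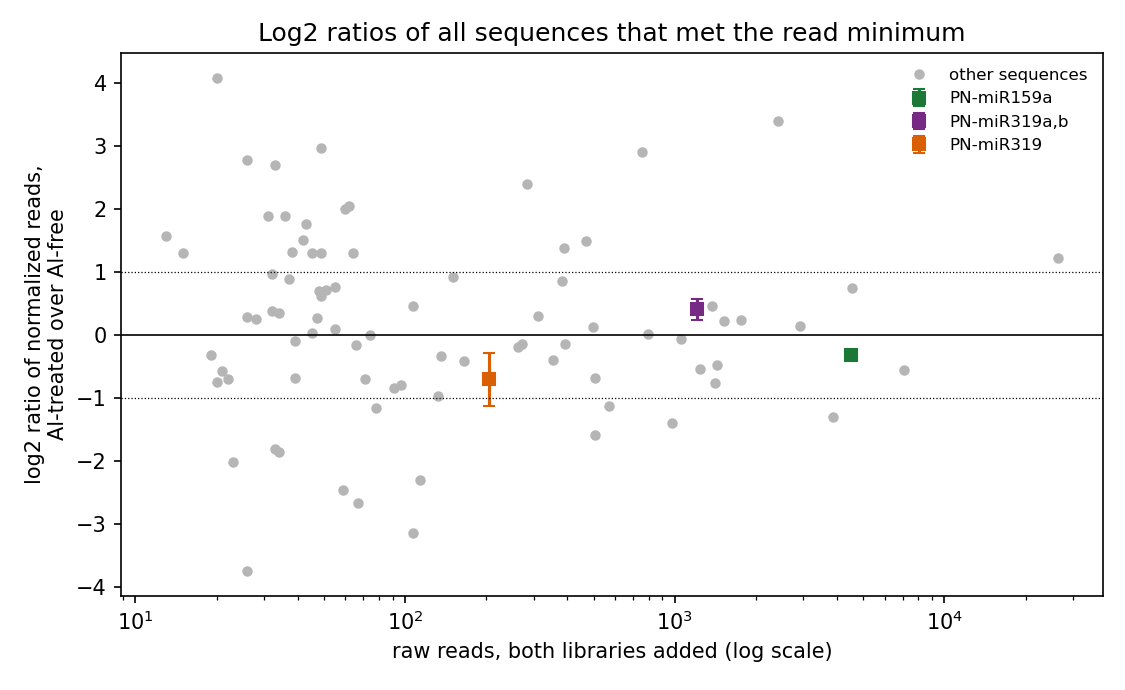
Log2 ratio of normalised reads, Al-treated over Al-free (y axis), against raw reads of both libraries added (x axis, log scale) for the 86 sequences that met the read minimum. Squares with 95% counting intervals mark PN-miR159a at -0.32, PN-miR319a,b at 0.41 and PN-miR319 at -0.70, all inside the dotted lines at 1 and -1 that 35 sequences reached or passed.

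Summed over its 3 sequences, miR159 had 2124 reads in the Al-treated library and 2366 in the Al-free library, with a log2 ratio of -0.31 (-0.40 to -0.23). miR319 summed to 809 reads in the Al-treated library and 608 in the Al-free library, with a log2 ratio of 0.25 (0.10 to 0.41). Both numbers together had 2933 reads in the Al-treated library and 2974 in the Al-free library, which was 6.59% of the listed reads in the Al-treated library and 9.78% in the Al-free library. With the study's factors the log2 ratio of this sum was -0.18 (-0.25 to -0.11), so that it was lower in the Al-treated library, although nearly the same in raw reads.

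Ratios between members of the same library need no scaling between libraries. PN-miR319a,b had 0.339 reads per read of PN-miR159a in the Al-treated library and 0.205 in the Al-free library, a ratio of 1.65 between the libraries (1.45 to 1.89; p = 1.64e-14, Fisher's exact test, two-sided). The balance between the main miR319 and miR159 sequences was thus higher towards miR319 in the Al-treated library whichever scaling was used. Using PN-miR319 in place of PN-miR319a,b turned the direction, with 0.0391 reads per PN-miR159a read in the Al-treated library and 0.0512 in the Al-free library, a ratio of 0.764 whose interval (0.567 to 1.03) included 1.

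Within miR319, the makeup differed too. PN-miR319a,b took 89.7% of the 803 mature miR319 reads in the Al-treated library (Clopper-Pearson interval 87.3 to 91.7%) and 80.0% of the 606 in the Al-free library (76.6 to 83.1%). PN-miR319 took the other 10.3% in the Al-treated library (8.32 to 12.7%) and 19.97% in the Al-free library (16.9 to 23.4%). The intervals of the libraries did not overlap. For each PN-miR319 read there were 8.67 PN-miR319a,b reads in the Al-treated library and 4.01 in the Al-free library, a ratio of 2.16 (1.58 to 2.97). This last ratio and the one with PN-miR319 over PN-miR159a were chosen after the values had been seen and are given as descriptions.

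**Figure D3:**
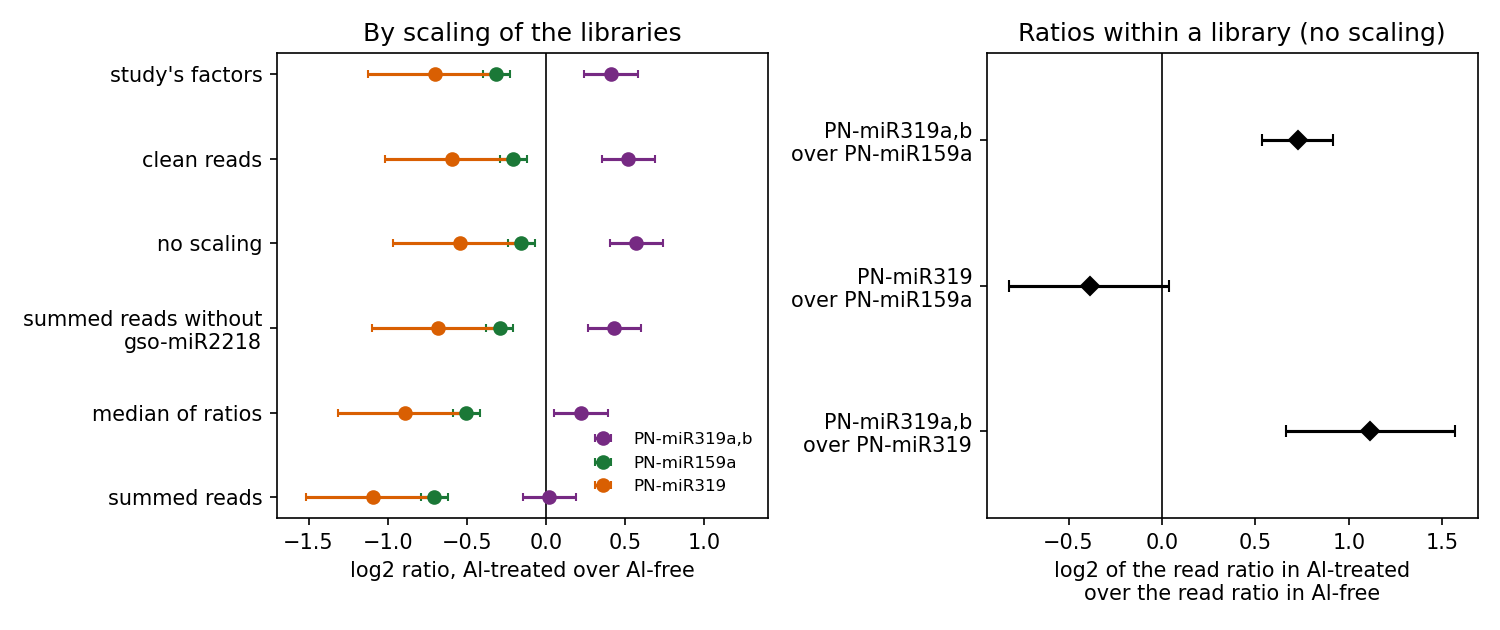
Left, log2 ratios of the 3 tested members (x axis, Al-treated over Al-free, with 95% counting intervals) under 6 scalings of the libraries (y axis). Right, log2 of the read ratio of a pair of members in the Al-treated library over that in the Al-free library, which needs no scaling. PN-miR159a and PN-miR319 lie below 0 under each scaling drawn, PN-miR319a,b lies above 0 except that it is at 0.021 with an interval across 0 under summed reads, and PN-miR319a,b over PN-miR159a lies at 0.73.

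As a share of the 21-nt reads, whose sum was nearly the same in both libraries, PN-miR159a held 16.9% in the Al-treated library (Clopper-Pearson interval 16.3 to 17.6%) and 18.9% in the Al-free library (18.2 to 19.6%). PN-miR319a,b held 5.75% in the Al-treated library (5.35 to 6.17%) and 3.88% in the Al-free library (3.55 to 4.23%). PN-miR319 held 0.663% in the Al-treated library and 0.968% in the Al-free library. The directions were those of the normalised reads. With sums so alike, these shares follow the raw reads and are no separate check. As a share of all listed reads, in contrast, PN-miR159a held 4.77% in the Al-treated library and 7.77% in the Al-free library, and PN-miR319a,b held 1.62% in the Al-treated library and 1.59% in the Al-free library.

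Other sequences with at least 100 reads in each library had ratios close to those of the members. Nearest to PN-miR159a (log2 ratio -0.32) were PN-miR160b at -0.39, of a family that acts on auxin response factors, gso-mir2218-p5 at -0.18 and gso-miR2109 at -0.47. Nearest to PN-miR319a,b (0.41) were gso-miR167a at 0.46, also of a family that acts on auxin response factors, PN-miR4413 at 0.31 and gso-miR1508a at 0.23. Likeness is the difference of log2 ratios among 28 such sequences over 2 libraries, and nothing further ties these sequences to the members here.

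Among conserved families that act on transcription factor mRNAs, such as miR156, miR164, miR166, miR169, miR172 and miR396, 26 sequences were listed and 15 tested. Of these, 4 were called higher, 5 lower and 6 in neither direction, beside 32.6% called higher and 27.9% called lower over all 86 tested, so that their calls were close to the background. Their median log2 ratio was -0.39, beside 0.14 over all 86. miR159 and miR319 made up 51.2% of the 5731 reads of these families, themselves included, in the Al-treated library and 53.8% of 5533 in the Al-free library. Together they thus had slightly more reads than the other families of this list in both libraries, and no interval was made for these shares. Most of their reads were those of PN-miR159a, with 2121 in the Al-treated library and 2363 in the Al-free library.

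In Arabidopsis, class II TCP factors activate MIR164 and MIR396 genes, so that miR164 and miR396 act in the same pathway as miR319. Of the 4 listed sequences of these numbers, 3 met the minimum. PN-miR396a-1, of a family that acts on growth regulating factors, had 676 reads in the Al-treated library and 81 in the Al-free library, with a log2 ratio of 2.90. PN-miR396b,c had 255 reads in the Al-treated library and 126 in the Al-free library, with a log2 ratio of 0.86. PN-miR164, of a family that acts on NAC factors, had 12 reads in the Al-treated library and 95 in the Al-free library, with a log2 ratio of -3.14. All 3 were called, 2 higher and 1 lower, so these miRNAs did not move one way together, and the differences of PN-miR396a-1 and PN-miR164 were larger than those of miR319. Of miR828 and miR858, which act on other Myb genes in Arabidopsis, 0 sequences were listed.

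The degradome lists gave the names of genes without read numbers, cleavage sites or scores, so a gene was either listed or not, and a gene that was not listed was not measured at 0. The lists gave PN-miR159 or PN-miR319 as the miRNA, and taken alone they do not tell which of the sequences above was matched to a gene. The paper's target plots name PN-miR319a for TCP genes such as Glyma12g35720, and PN-miR319 for Myb genes. Whether PN-miR319 there means the sequence or the family is not stated. The Al-treated list held 70 genes and the Al-free list 41, and 37 of all 78 genes (47.4%) stood only in the Al-treated list, 33 (42.3%) in both and 8 (10.3%) only in the Al-free list. The genes of miR159 and miR319 numbered 11 in the Al-treated list and 4 in the Al-free list. Of the 11, 7 (63.6%) were listed only in the Al-treated degradome, beside 30 of the 67 other genes (44.8%), 4 were in both lists, and 0 were only in the Al-free list. The part of the longer Al-treated list in this was not tested, and no test was made on lists without values. For miR1510, the Al-treated list held 1 gene and the Al-free list 2. The paper's text reports more genes for this miRNA in the Al-treated library, and more target genes in all, than these lists hold. The shares over all genes and over the other genes, here and below, thus hold for these lists only. They may differ in the paper's larger set.

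The shared targets were Myb genes. Glyma13g04030 and Glyma20g11040, which encode Myb transcription factors, were each listed for both miR159 and miR319, and only in the Al-treated degradome. Of the 78 genes, 9 were listed for more than 1 miRNA number. Of these, 5 were shared by miR156 and miR157 and 2 by miR169 and the predicted PC-2-5p, so these 2 Myb genes were the only ones shared by miR159 and miR319. The mature sequences of both miRNAs share the 11-base run shown above, but whether this run bears on the shared targets was not tested.

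The separate target of miR159 was Glyma12g28990, which encodes a SecE/Sec61-gamma subunit of the channel that moves proteins across the membrane of the endoplasmic reticulum, and which is no transcription factor. It was listed only in the Al-treated degradome. All 3 genes of miR159 were therefore listed only there, beside 37 of 78 (47.4%) over all genes, which is little to read from 3 genes in the longer list. Other miRNAs whose genes were all in the Al-treated list only were miR160 with 7 genes, miR394 with 4, miR1514 with 3, and miR167 and miR2109 with 1 each.

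The separate targets of miR319 were 8 TCP genes, none of which was listed for miR159. For PN-miR319 the paper's text counts 8 genes from the Myb and TCP families together, whereas the lists used here held 10. Glyma05g27370, Glyma08g10350, Glyma12g35720 and Glyma13g34690 were in both the Al-treated and the Al-free list. Glyma06g34330, Glyma12g20160, Glyma13g29160 and Glyma15g09910 were only in the Al-treated list. TCP genes were thus the only targets of these miRNAs that were in the Al-free list, with 4 of 8 in both lists beside 33 of 78 (42.3%) over all genes. Amounts of the target mRNAs were not analysed here.

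**Figure D4:**
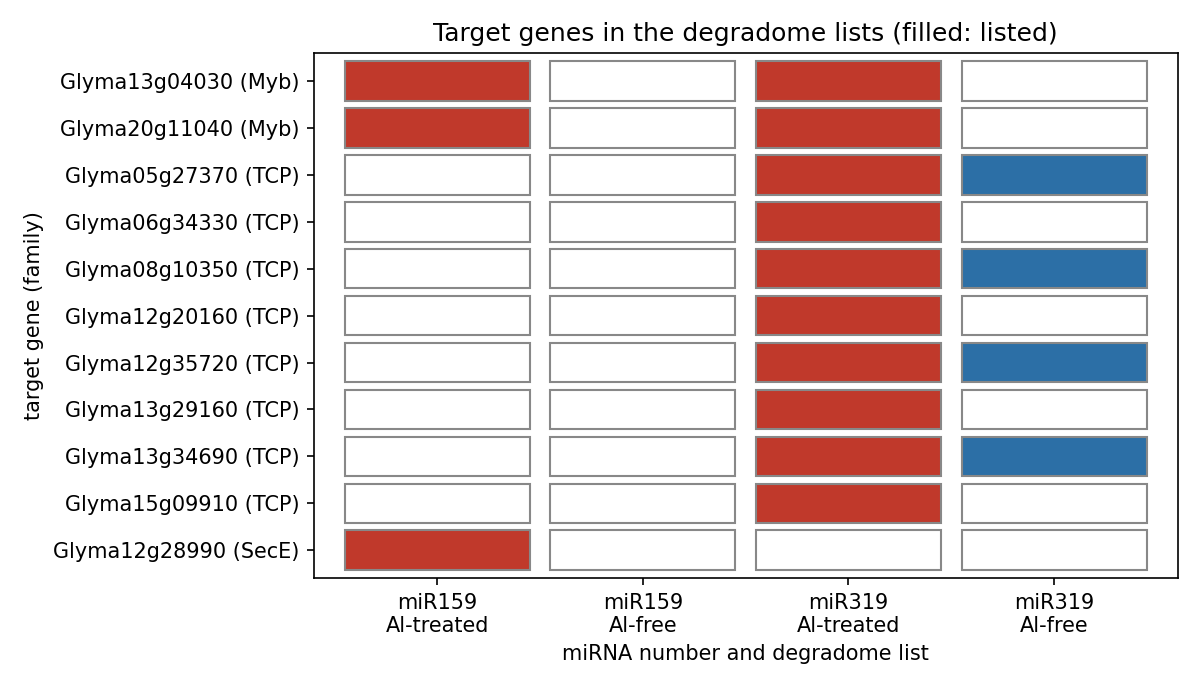
The 11 target genes (rows, with the family of the encoded protein) against the miRNA number and degradome list (columns), where a filled cell means that the gene was listed, red for Al-treated and blue for Al-free. Both Myb genes are filled under miR159 and miR319 in the Al-treated list only, and 4 of the 8 TCP genes are filled in both lists.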

How the data were processed

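The small RNA files hold, as deposited, a raw read count for each name with its sequence. The authors had filtered the reads (adaptor missing, too short, junk), compared the clean reads with miRBase, allowing up to 2 mismatches, and run ACGT101-miR 4.2. Per the deposited lists, degradome targets were names of miRNAs and genes with no value (unit: other), called by the authors with CleaveLand 3.0 and ACGT301-DGE 1.0. Family labels of the genes follow the study's annotation, and 0 of the 78 gene identifiers matched the 59365 genes of the reference table. The reference sequences of the target genes were not used here.

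Reads were counted once per distinct sequence and scaled with the factors implied by the study's normalised reads, whose method is not given in the sources used here. Exact binomial and Fisher tests and Poisson and Clopper-Pearson intervals were made in Python 3.11.15 (NumPy 2.4.6, SciPy 1.17.1, matplotlib 3.10.9). The Benjamini-Hochberg adjustment was made over 86 sequences. Every member is named, and beside them, by rule, the 3 sequences nearest in log2 ratio to PN-miR159a and to PN-miR319a,b. A line repeated in the Al-treated list was counted once. Alternatives were other scalings, read minimums, tests, a pseudocount of 1 and other ways to count. The members and lists were chosen with earlier results of these data known.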

Additional observations from a re-analysis of the deposited data

How the results depend on the processing

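Of 48 alternative settings, 43 kept the direction and the side of the threshold, or a count within 1.5 times. PN-miR159a ranged from -0.70 to -0.16 in log2 ratio (adjusted p from 1.42e-62 to 0.000721, exact tests) and PN-miR319 from -1.09 to -0.54 (3.40e-07 to 0.0165, exact tests), and both stayed called under each alternative run. PN-miR319a,b ranged from 0.021 to 0.57 (6.89e-11 to 0.865, exact tests) and lost its call under scaling by summed reads (0.021, adjusted p = 0.865, exact binomial test) and in Fisher's exact test against all other listed reads (0.021, p = 0.863), which uses the same sums. Relative to the study's factors, log2 ratios of all sequences moved by 0.11 with clean reads, -0.39 with summed reads, -0.19 with the median of ratios and 0.16 without scaling, and 19 sequences were then called higher and 36 lower with summed reads (34.5% higher), against 28 and 24 (53.8%). A minimum of 50 reads left 34 sequences called, because fewer were tested. Counting the genes of miR159 only, 3 were listed only in the Al-treated degradome. The log2 ratio of miR319 to miR159 reads was 0.73, between 0.56 and 0.72 with all sequences summed, mature strands only or a pseudocount, and -0.39 with PN-miR319 in place of PN-miR319a,b, a setting added after seeing the data, as were the scaling without gso-miR2218 and all settings for PN-miR319.

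Each small RNA test compared 1 Al-treated library with 1 Al-free library. There was no replicate to leave out, and spread between plants was not measured. No paired analysis was possible because each condition had 1 library per assay. Depth limits the p5 strands and PN-miR159c, with 1 to 6 reads. The degradome lists hold no values, so their precision is unknown.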
